A study of Mus musculus with 16 samples.

Results

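The cells described here are those that the authors named M1 or M2 macrophages in subcutaneous NB9464D tumors, a mouse neuroblastoma graft, compared between a preparation enriched by sorting and the unsorted tumor suspension. They were all cells carrying either name in the deposited annotation, 2900 of 20376 cells. The hosts were male C57BL/6 mice inoculated at 8 weeks of age, either wild type (WT) or CD200R-/- (KO). The labels give CD200R-/- as genotype in the design but write CD200-/- in the growth protocol. All groups carried the same graft, were taken on day 28 and were digested with collagenase at 1 mg/mL. Sorted groups held CD45+ leukocytes isolated by flow cytometry, and tumor groups held the whole suspension. The labels list 4 samples in each of the 4 groups, while the annotation ties a cell to a group and to no sample. Each group was therefore 1 pooled library, and no spread between animals or samples could be measured. WT sorted held 1577 of these cells, WT tumor 191, KO sorted 761 and KO tumor 371, which was 30.2%, 3.85%, 17.7% and 6.29% of the cells of each library.

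Tumor macrophages are phagocytes that derive largely from circulating monocytes and are defined by genes such as the CSF1 receptor, complement C1q chains, CD68 and CD14. They respond quickly to handling: digestion, warming and sorting can switch on immediate early genes, such as those of the FOS, NR4A and DUSP families, together with inhibitors and targets of NF-kB. CD45, the product of Ptprc, is carried by leukocytes and not by graft or stromal cells. CD200R is an inhibitory receptor of myeloid cells.

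The name macrophage was first checked against 20 identity genes, which included Cd68, Adgre1, Csf1r, Fcgr1, Mertk, C1qa, C1qb, C1qc, Lyz2, Itgam, Cd14, Aif1, Ms4a7, Apoe, Tyrobp, Fcer1g, Ptprc, Cx3cr1 and Fcgr3. Most cells bore the name out, but a distinct set in the tumor libraries did not. The summed identity genes made up a median of 3.53% of the UMIs (unique molecular identifiers, the counted transcripts) of a WT sorted cell, 2.42% in WT tumor, 1.76% in KO sorted and 2.25% in KO tumor. In WT tumor, 61 of 191 cells held under 0.5% (31.9%, Clopper-Pearson 95% interval 25.4 to 39.1%), and in KO tumor 47 of 371 did (12.7%, 9.46 to 16.5%). In the sorted libraries only 5 of 1577 (0.317%) and 20 of 761 (2.63%) did, and these lay near that value, with medians of 0.462% and 0.387%, and mostly had Ptprc UMIs. The 20 cells of KO sorted nevertheless held 47.5% of the UMIs of 31 fibroblast and matrix genes among the macrophages of that library. Of these 20 cells 2 lay under 0.1%. Cells under 0.5% are called marker-poor here and the others marker-carrying. The value of 0.5% was chosen after the gap had been seen. In WT tumor 57 of the 61 marker-poor cells lay under 0.1%, 3 lay between 0.2% and 0.5%, and 4 marker-carrying cells lay between 0.5% and 1%. In KO tumor these numbers were 37, 5 and 29.

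**Figure D1:**
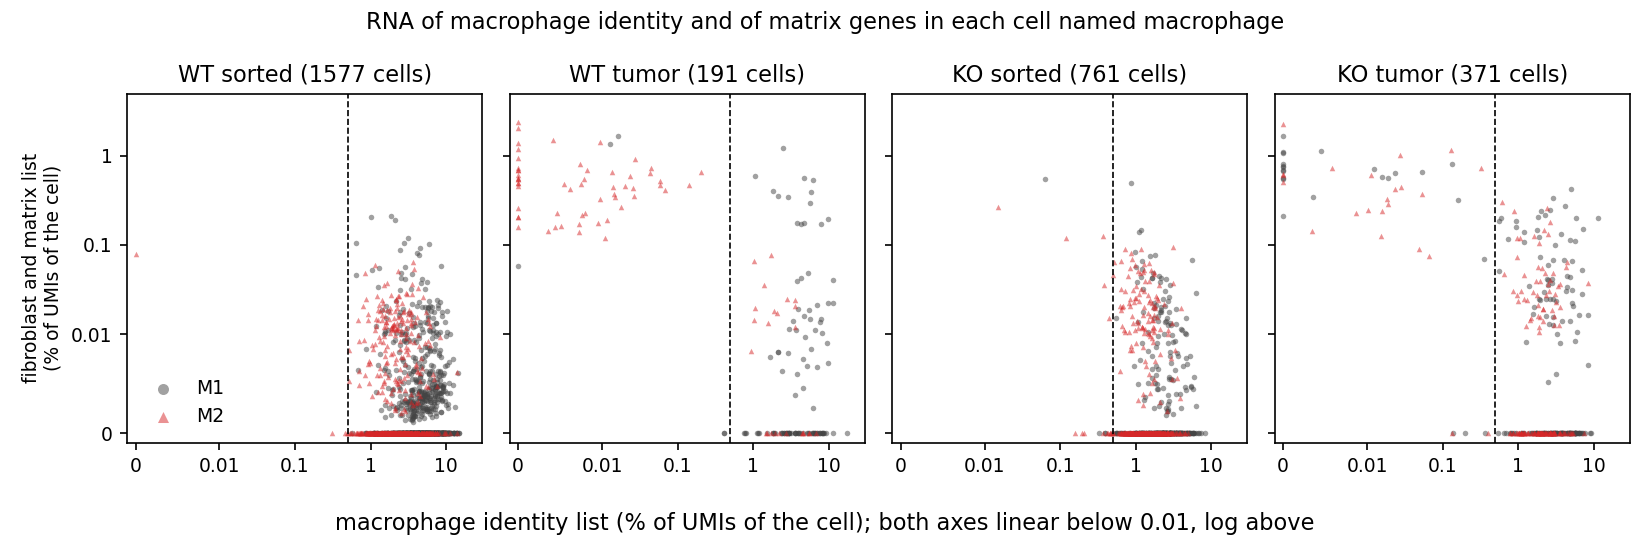
Each point is 1 cell named macrophage, with the share of its UMIs from the 20 identity genes on the horizontal axis and from 31 fibroblast and matrix genes on the vertical axis, both linear below 0.01% and logarithmic above. Grey circles are M1 and red triangles M2, and the dashed line stands at 0.5%. A separate group of cells at the upper left, poor in identity RNA and rich in matrix RNA, appears in WT tumor and KO tumor and holds few cells of the sorted libraries.

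The marker-poor tumor cells carried matrix RNA. Ptprc is one of the identity genes that set these cells apart, so its values describe the selection. It had a UMI in 0 of 61 of them in WT tumor and in 2 of 47 in KO tumor (4.26%), against 57.7% and 59.6% of the marker-carrying cells of the same libraries. For the 0 of 61, an approximate limit of 3 cells in 61 allows a share of 4.92%, which is not a Clopper-Pearson value. The marker-poor tumor cells were deep, with a median of 15484 UMIs in WT tumor and 16391 in KO tumor, against 6797 and 2871 in marker-carrying cells. They held 44.8% of all macrophage UMIs of WT tumor and 37.0% of those of KO tumor. The median share of fibroblast and matrix genes in them was 0.472% and 0.558%, close to the 0.550% and 0.535% of the cells named fibroblasts in the same libraries. Among cells named M2 in WT tumor, 56 of 81 were marker-poor and held 85.1% of the UMIs, while 5 of 110 cells named M1 were. In KO tumor 23 of 168 M2 and 24 of 203 M1 cells were marker-poor.

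Across genes, the summed profile of the marker-poor cells was closer to the cells named fibroblasts or neuroblastoma than to the marker-carrying macrophages. The Pearson correlation of log2 levels was 0.901 with the former and 0.756 with the latter in WT tumor over 13094 genes, and 0.900 and 0.750 in KO tumor over 13298 genes. These are descriptions over genes of the same library, which share its background. The genes furthest above the marker-carrying cells in both genotypes were led by Sox9, a transcription factor of cartilage and progenitor cells, Tagln, an actin-binding protein of contractile cells, and Il19, a cytokine of the IL-10 family. Sox9 stood at 90.5 CPM, the usual scaling of UMIs to the depth of the summed cells, in marker-poor WT tumor cells and 167 in KO tumor, against 0.817 and 0.768 in the marker-carrying cells and 1.68 and 1.82 in the cells named fibroblasts or neuroblastoma. They thus differed from the other graft-named cells too. Ptgs2, which encodes the prostaglandin synthase COX-2, stood at 837 and 243 CPM in them, against 4.24 and 3.02 in the cells named fibroblasts or neuroblastoma. Areg, an EGF receptor ligand, Saa3, an acute phase protein, and the hypoxia-responsive genes Ero1l, Ndrg1 and Adm were also among the 12 genes furthest above those cells. Because the cells were selected by identity RNA, these contrasts are descriptions and no new cell type name is given.

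A further check concerned barcodes. The same cell barcode occurred in 2 or more libraries 113 times, and 33 of these barcodes occurred in all 4. They covered 84 macrophages (27 in WT sorted, 17 in WT tumor, 21 in KO sorted, 19 in KO tumor), and for 84 of the 113 barcodes the deepest cell had at least 10 times the UMIs of the shallowest. Macrophages of the sorted libraries were also deeper, with a median of 18239 UMIs per cell in WT sorted, 11579 in WT tumor, 7955 in KO sorted and 2993 in KO tumor. The part of depth in the differences below was not tested beyond the alternatives given in the closing section. UMIs were summed over 33437902, 2219368, 8778007 and 2064125 per library, so intervals are widest in the tumor libraries and cover counting error only.

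Over all cells named macrophages, genes differed by preparation in both genotypes in both directions. Ratios are log2 values of CPM in sorted over tumor, relative to the median gene (by total UMIs that gene stood at 0.17 in WT and 0.08 in KO). Of 9776 genes with at least 50 UMIs in each genotype, 323 were at least 2-fold higher in sorted in both WT and KO (3.3%), 466 were higher in tumor in both (4.77%), and 14 went opposite ways (0.143%). Within the marker-carrying cells (1572, 130, 741 and 324 cells in WT sorted, WT tumor, KO sorted and KO tumor) these numbers were smaller. Of 9381 genes, 106 were higher in sorted (1.13%), 47 were higher in tumor (0.501%) and 22 were opposite (0.235%). Of the 323 genes higher in sorted, 74 were also called in the marker-carrying cells, and of the 466 higher in tumor 43 were. Among genes that reached 50 CPM in each genotype, 62 were higher in sorted and 103 in tumor over all cells. Within marker-carrying cells only 2 (Ptgs2 and Tnfaip3) and 3 (Gas1, Csrp2 and Nedd4) were. The marker-carrying cells differed in their mix of names: 950 of 1572 were M1 in WT sorted, 105 of 130 in WT tumor, 346 of 741 in KO sorted and 179 of 324 in KO tumor. Among the M1 cells of these 58 genes were higher in sorted and 33 in tumor, and among the M2 cells 64 and 22. These numbers can include genes with 0 UMIs in a library, which were set to 3 UMIs. Leaving out the cells with shared barcodes gave 350 and 471 genes over all cells, and 116 and 42 in marker-carrying cells.

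**Figure D2:**
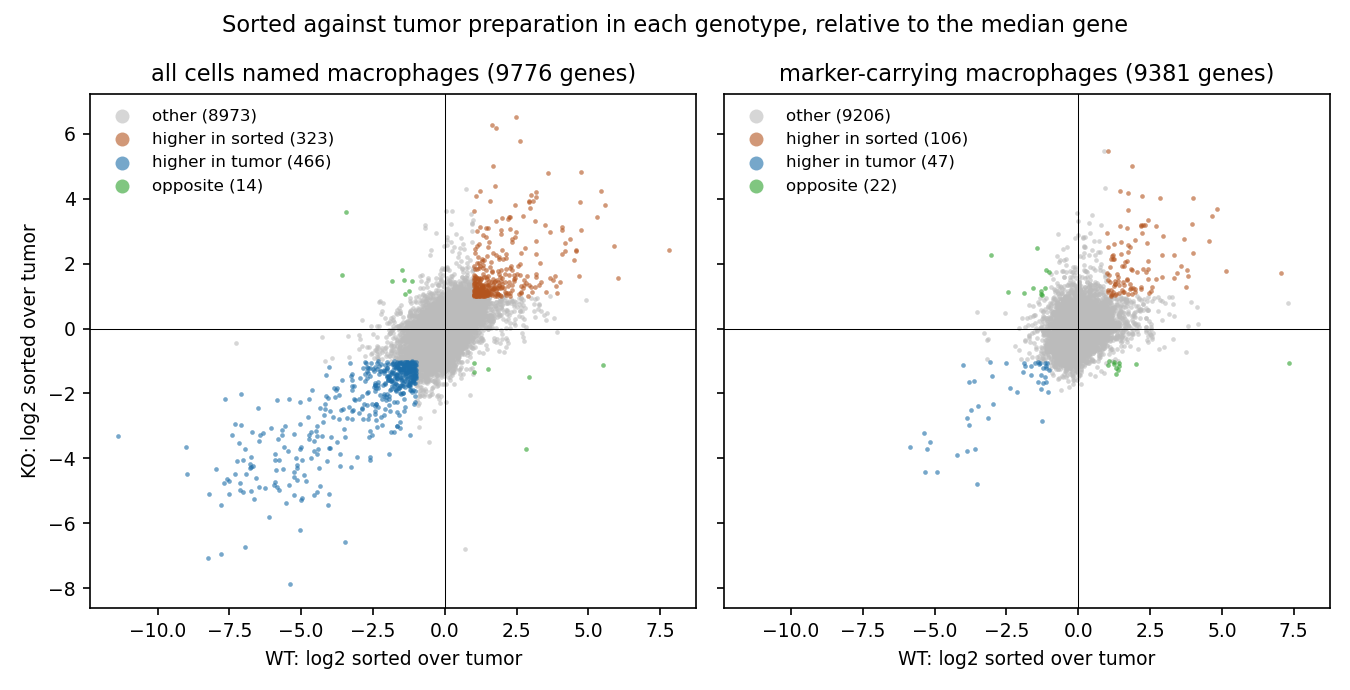
Each point is 1 gene, with its log2 ratio of sorted over tumor in WT on the horizontal and in KO on the vertical axis, over all cells named macrophages (left) and marker-carrying macrophages (right). Orange points are at least 2-fold higher in sorted in both genotypes (323 and 106), blue points higher in tumor in both (466 and 47) and green points opposite (14 and 22). The long lower left arm of the left panel is much shorter in the right one.

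The 12 genes with the leading differences towards tumor over all cells included Ccn1, Fstl1, Col5a1, Col6a2, Igfbp5, Sparc, Dcn, Fermt2, Col6a1, Mmp2 and Serpinf1, among them collagen chains, the matrix proteoglycan decorin (Dcn), the collagen-binding SPARC and the gelatinase MMP2. Col6a1 stood at 1.29 CPM in WT sorted, 209 in WT tumor, 5.35 in KO sorted and 133 in KO tumor, ratios of -7.51 and -4.71. In marker-carrying cells it stood at 1.29, 71.9, 1.40 and 10.8 CPM, ratios of -5.86 and -3.08. Both tumor libraries thus remained above both sorted ones, at a lower level. Mgp, an inhibitor of matrix calcification, went from 835 and 417 CPM in the tumor libraries to 129 and 49.2 when marker-poor cells were left out. All 12 leading genes kept a negative ratio in both genotypes in the marker-carrying cells, and of the 287 tumor-higher genes that could be measured there 243 did.

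What matrix RNA was left in the marker-carrying cells sat in few of them. The 31 fibroblast and matrix genes summed to 43.4 CPM in WT sorted (Poisson 95% interval 41.2 to 45.7), 1084 in WT tumor (1027 to 1144), 65.6 in KO sorted (60.3 to 71.3) and 311 in KO tumor (282 to 343). In WT tumor 17 of 130 cells had UMIs of at least 3 of these genes and held 95.3% of the sum, and without them the value was 69.9 CPM. In KO tumor 13 of 324 cells held 64.7%, and without them it was 128 CPM. B cells of the same libraries, which do not make matrix, stood at 15.03 CPM in WT sorted, 146 in WT tumor, 16.5 in KO sorted and 132 in KO tumor. The tumor libraries were thus higher in B cells too, near the level of the macrophages without those few cells in KO tumor and above it in WT tumor.

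The 3 genes that passed the level rule in marker-carrying cells and were higher in tumor had smaller ratios once possible doublets, meaning cells that had 3 or more markers of 2 or more lineages detected, were removed. Gas1, a membrane protein of growth-arrested mesenchymal cells, stood at 1.68 CPM in WT sorted, 64.5 in WT tumor, 2.92 in KO sorted and 56.9 in KO tumor, while all cells that are no macrophages in WT tumor had 495. Csrp2, a LIM protein of smooth muscle, stood at 19.6, 165, 12.1 and 74.5 CPM. Nedd4, a ubiquitin ligase, stood at 7.90, 59.6, 13.7 and 62.2 CPM. The cells of WT tumor that are no macrophages had 745 CPM of Csrp2 and 532 of Nedd4. The ratio of Gas1 was -5.32 in WT and -4.42 in KO, and -1.48 and -2.43 without possible doublets, from 3 UMIs in WT tumor. For Csrp2 the ratios went from -3.13 and -2.76 to -0.88 and -1.66, and for Nedd4 from -2.97 and -2.33 to -0.90 and -1.14. Without those cells Csrp2 and Nedd4 no longer reached 2-fold in WT.

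The 12 genes with the leading differences towards sorted over all cells were the neutrophil chemokine Cxcl2, the lectin receptor Clec4e, the NF-kB adaptor Malt1, the kinase Pim1, the ubiquitin-editing NF-kB inhibitor Tnfaip3, the chemokine receptor Cxcr4, the transcription factors Runx3 and Csrnp1, the MAP kinase phosphatase Dusp1, the adhesion regulator Cytip, the eosinophil chemokine Ccl24 and the IL-1 receptor antagonist Il1rn. In both sorted libraries Malt1, Tnfaip3, Cxcr4, Runx3, Cytip and Csrnp1 stood higher in the cells not named macrophages than in those named so. In KO sorted Tnfaip3 stood at 397 CPM in the other cells against 167, and Malt1 at 514 against 252. Cxcl2 (3008 against 2005 CPM) and Pim1 (324 against 321) were higher in the other cells in WT sorted alone. Clec4e, Dusp1, Ccl24 and Il1rn were higher in the macrophages of both sorted libraries. All 12 kept a positive ratio in both genotypes in marker-carrying cells, at smaller values except for Csrnp1 in WT, which went from 1.30 to 1.66. Pim1 stood at 320 CPM in WT sorted, 140 in WT tumor, 866 in KO sorted and 403 in KO tumor among marker-carrying cells. Its ratios there were 1.13 (0.91 to 1.36) and 0.97 (0.84 to 1.10), against 1.45 and 1.53 over all cells. The KO macrophages were above the WT ones for Pim1 in both preparations, so its preparation difference was seen at different levels.

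Genes led by macrophages, meaning at least 2-fold above all other cells of the same library, numbered 20 among those higher in sorted and 5 among those higher in tumor over all cells. The former were led by Ccl24, the elastase Mmp12, the RNA-binding protein Rbm47, the scavenger receptor Cd36, the phospholipase Pla2g7, the lectin Clec4d, Cd14, arginase 1 (Arg1), the leukotriene receptor Cysltr1, Nrros and Lrrc25. None of these 20 reached 2-fold in both genotypes in marker-carrying cells. The cells left out there were selected for low macrophage RNA, so smaller ratios follow at least in part from that selection. Cd36, for example, stood at 159 CPM in WT sorted, 61.7 in WT tumor, 161 in KO sorted and 51.8 in KO tumor over all cells. Without marker-poor cells its tumor levels were 112 and 82.2 CPM and its ratios 0.46 and 0.85. Cd14 is an identity gene, so it counts among those used to select the cells. Mmp12 kept a ratio of 1.34 in KO and 0.56 in WT, and Arg1 1.40 in WT and 0.38 in KO. For Mmp12 the ratios were 0.64 in WT and 2.28 in KO among marker-carrying M1 cells. Among marker-carrying M2 cells they were -0.07 and -1.66, so its direction differed by name.

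The 5 macrophage-led genes higher in tumor turned the other way. They were Ndrg1, Areg, Ero1l, Ugdh and the neutrophil chemokine Cxcl1. Ero1l, an endoplasmic reticulum oxidase induced in hypoxia, stood at 198 CPM in WT sorted, 656 in WT tumor, 91.8 in KO sorted and 218 in KO tumor over all cells. In marker-carrying cells it stood at 198, 92.3, 87.4 and 48.4 CPM, so sorted was above tumor in both genotypes. Its ratio went from -1.90 to 1.04 in WT and from -1.33 to 0.71 in KO. Cxcl1 went from -2.21 to 1.45 and from -1.08 to 4.23 (2.87 to 6.11, from 4 UMIs in KO tumor). Ndrg1 went from -1.43 to 0.58 and from -1.60 to 0.61, but among marker-carrying M2 cells it was at -0.02 and -0.005. Areg had 222 and 149 CPM in marker-poor tumor cells and 0 UMIs in the 130 marker-carrying cells of WT tumor. Its ratio there was at least 1.25 in WT and 2.15 (1.00 to 3.61) in KO, from 6 UMIs in KO tumor. The intervals of Ugdh, a sugar dehydrogenase, included 0 in both genotypes. Among all cells named M1, with no rule on markers, Cxcl1 (0.79 in WT and 2.03 in KO), Ero1l (0.41 and 0.16) and Areg (0.49 and 0.65) were above 0 in both genotypes, while Ndrg1 was not (0.37 and -0.92) and Ugdh lay near 0. Among all cells named M2 these 5 genes were higher in tumor in both genotypes, with ratios of -1.43 or below.

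**Figure D3:**
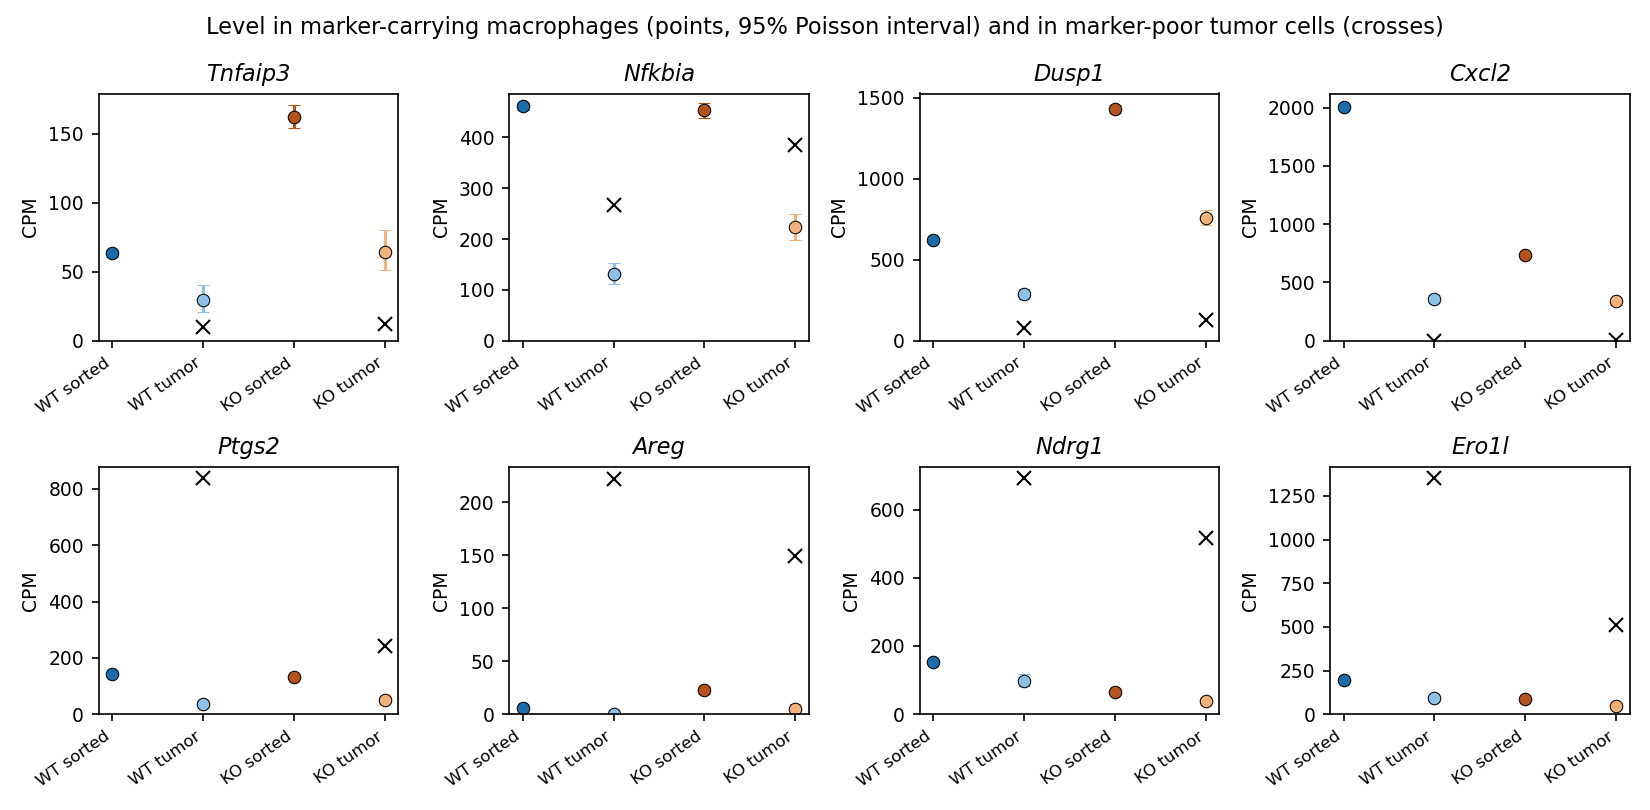
CPM of 8 genes in the marker-carrying macrophages of each library (points with the exact Poisson 95% interval, which is smaller than the point in places) and in the marker-poor cells of the tumor libraries (crosses). For Tnfaip3, Dusp1 and Cxcl2 the crosses lie below the points, while for Ptgs2, Areg, Ndrg1 and Ero1l they lie above all 4 libraries.

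Inhibitors and targets of NF-kB were higher in sorted macrophages with and without the marker-poor cells. Lists used genes with at least 20 UMIs in each genotype and a 1.5-fold difference. Over all cells 10.9% of 11282 genes were then higher in sorted in both genotypes and 12.4% in tumor, and in marker-carrying cells 3.81% and 3.6% of 10876 genes. These shares stand beside the counts of every list below. Of 20 measured genes of NF-kB feedback, 11 were higher in sorted and 1 (Sod2) in tumor over all cells, with medians of 0.81 in WT and 0.79 in KO. In marker-carrying cells 4 (Tnfaip3, Traf1, Nfkbia and Nfkbid) were higher in sorted and 0 in tumor, with medians of 0.63 and 0.46. In addition 15 of the 20 lay above the median gene in both genotypes and 0 below it in both, where 29.7% of all 10876 genes lay above it in both and 29.8% below it in both. B cells of the same libraries had medians of 0.12 and 0.22 over 18 of these genes.

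Tnfaip3 encodes A20, which takes apart the ubiquitin chains that carry the NF-kB signal, and Nfkbia encodes the cytoplasmic inhibitor of NF-kB. Tnfaip3 (chr10:19000910-19015657, minus strand, GRCm38) stood at 63.2 CPM in WT sorted, 29.4 in WT tumor, 162 in KO sorted and 64.5 in KO tumor among marker-carrying cells. Each sorted library was above the tumor library of its genotype, while WT sorted and KO tumor were alike. The ratios were 1.05 (0.57 to 1.57) and 1.19 (0.87 to 1.53). With every cell of at least 2000 UMIs thinned to 2000, 11.8% of WT sorted, 4.65% of WT tumor, 22.2% of KO sorted and 13.1% of KO tumor cells had a Tnfaip3 UMI. Unthinned shares were 47.1%, 12.3%, 46.8% and 15.7%. Shallower cells were left out of the thinned shares, 78 in WT sorted, 44 in WT tumor, 98 in KO sorted and 126 in KO tumor. Without possible doublets the smaller of the Tnfaip3 ratios was 0.54, and in M1 cells alone 0.53, so that it no longer reached 2-fold in both genotypes. In B cells Tnfaip3 stood at 38.4, 11.2, 116 and 86.6 CPM. Nfkbia (chr12:55489410-55492647, minus strand) stood at 461, 131, 453 and 223 CPM in marker-carrying cells, ratios of 1.75 (1.53 to 1.99) and 0.89 (0.71 to 1.06), and both sorted libraries were above both tumor libraries. In B cells it stood at 299, 404, 172 and 123 CPM, so WT tumor was above WT sorted there. Nfkbid was lower in sorted in at least 1 genotype when cells were weighted equally, with a ratio of -0.35.

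The 250 bases before the start of 4 of these genes are shown because they carry the motifs of the factors that these genes are known to answer to. Sequences are those of RefSeq on GRCm38.p6, from 5' to 3' on the strand of the gene. The start is the one RefSeq gives, which is the end of the GENCODE gene for Nfkbia but lies inside the GENCODE gene by 28 bases for Cxcl2, 247 for Tnfaip3 and 53656 for Dusp1. The table gives 2 starts for Tnfaip3, and the 1 of them with matches is shown. Capitals mark matches to the kappa-B consensus in Tnfaip3, Nfkbia and Cxcl2, and to the cAMP response element TGACGTCA in Dusp1, searched on both strands.
Tnfaip3, chr10:19015411-19015660, minus strand: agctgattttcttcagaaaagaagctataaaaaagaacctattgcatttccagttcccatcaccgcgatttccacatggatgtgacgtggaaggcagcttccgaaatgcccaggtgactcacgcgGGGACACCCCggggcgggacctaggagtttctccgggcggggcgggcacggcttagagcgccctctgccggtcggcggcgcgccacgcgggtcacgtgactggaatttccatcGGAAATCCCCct
Nfkbia, chr12:55492648-55492897, minus strand: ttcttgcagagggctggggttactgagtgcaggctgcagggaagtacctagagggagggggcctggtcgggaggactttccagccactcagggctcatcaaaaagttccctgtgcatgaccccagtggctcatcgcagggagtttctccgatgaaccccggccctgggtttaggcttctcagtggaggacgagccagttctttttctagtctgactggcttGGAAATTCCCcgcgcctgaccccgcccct
Cxcl2, chr5:90903649-90903898, plus strand: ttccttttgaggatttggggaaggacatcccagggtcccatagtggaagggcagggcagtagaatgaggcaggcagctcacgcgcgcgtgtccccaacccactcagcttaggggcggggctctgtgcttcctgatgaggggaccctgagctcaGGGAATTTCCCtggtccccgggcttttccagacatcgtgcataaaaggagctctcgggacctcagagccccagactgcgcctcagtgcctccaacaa
Dusp1, chr17:26508473-26508722, minus strand: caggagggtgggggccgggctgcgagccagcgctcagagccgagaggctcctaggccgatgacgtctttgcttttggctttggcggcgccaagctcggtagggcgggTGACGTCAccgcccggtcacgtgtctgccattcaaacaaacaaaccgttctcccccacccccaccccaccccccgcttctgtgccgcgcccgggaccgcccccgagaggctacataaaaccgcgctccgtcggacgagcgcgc
The matches in Tnfaip3 begin 125 and 12 bases before that RefSeq start, that in Nfkbia 29 bases before it, the 2 overlapping ones in Cxcl2 97 and 96 bases before it, and that in Dusp1 143 bases before it. The kappa-B consensus was found in 9 of 18 genes of the NF-kB feedback list with a promoter in the table, and in 6 of 23 chemokines, against 4.46% of 27025 genes. The cAMP response element was found in 4 of 26 immediate early genes, against 1.77% of genes. A match describes these letters only.

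Immediate early genes, which are transcribed within minutes of a stimulus, were also higher in sorted macrophages. Of 30 measured genes, 8 were higher in sorted and 0 in tumor in marker-carrying cells: Dusp5, Csrnp1, Nr4a2, Maff, Dusp1, Nr4a3, Nr4a1 and Klf6. The medians were 0.65 in WT and 0.53 in KO, and 25 of the 30 lay above the median gene in both genotypes and 0 below it in both, against the 29.7% and 29.8% of all genes. Over all cells the medians were 0.23 and 0.67, with 8 of 31 higher in sorted and Fosl1 higher in tumor. B cells had medians of 0.31 and 0.32 over 27 of these genes.

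Dusp1, which shuts off p38 and JNK, stood at 620 CPM in WT sorted, 286 in WT tumor, 1431 in KO sorted and 759 in KO tumor in marker-carrying cells, ratios of 1.06 (0.91 to 1.22) and 0.78 (0.68 to 0.87). The KO tumor library was above WT sorted, so the genotypes differed as well as the preparations. Among M2 cells alone the smaller ratio of Dusp1 was 0.16. Csrnp1, a nuclear protein induced by stress, stood at 51.1, 15.5, 154 and 72.2 CPM, ratios of 1.66 and 0.95. It was also higher in the sorted B cells, at 121 and 188 CPM against 33.6 and 57.7. The orphan nuclear receptor Nr4a1 stood at 52.8, 20.4, 275 and 161 CPM in marker-carrying cells. Not all members took part. Egr1 had ratios of -0.17 and 0.28 and Jun 0.35 and -0.10 in marker-carrying cells, and Fos stood at 1195, 667, 1597 and 1226 CPM, ratios of 0.78 and 0.24.

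Some inflammatory cytokines and growth factors followed the same order in marker-carrying cells. Of 20 measured genes 9 were higher in sorted (Nos2, Tnfsf9, Areg, Ptgs2, Inhba, Hbegf, Vegfa, Tnf and Il1rn) and 0 in tumor, with medians of 0.63 and 0.71. Of all genes 3.81% and 3.6% were. In WT and KO tumor Nos2 had 5 and 1 UMIs, Inhba 4 and 10, Areg 0 and 6, and Tnfsf9 11 and 10. They thus reached 20 UMIs through the deeper sorted libraries, and the count of 9 includes them. With 1% in place of 0.5% as the marker value, the KO ratios were 0.02 for Inhba and 0.20 for Areg. Over all cells 10 of 21 were higher in sorted and 5 (Lif, Csf3, Areg, Il6 and Csf1) in tumor. Ptgs2 (chr1:150100031-150108227, plus strand, GRCm38) stood at 143 CPM in WT sorted, 395 in WT tumor, 135 in KO sorted and 122 in KO tumor over all cells, ratios of -1.63 and 0.07. In marker-carrying cells it stood at 143 (139 to 147), 35.1 (25.4 to 47.3), 132 (124 to 140) and 51.5 (39.9 to 65.4) CPM. Both sorted libraries were above both tumor libraries, with ratios of 1.97 (1.54 to 2.44) and 1.22 (0.86 to 1.60). At 2000 UMIs per cell, 16.5%, 5.81%, 9.64% and 8.08% of the cells had a Ptgs2 UMI, so in KO the shares were close while the levels differed. The smaller ratio of Ptgs2 was 0.64 with cells thinned, 0.88 among M1 cells, 0.98 among M2 cells and 0.86 with equal weight per cell, so that under these choices it did not reach 2-fold in both genotypes.

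Tnf stood at 47.2, 23.7, 53.7 and 31.5 CPM in marker-carrying cells of WT sorted, WT tumor, KO sorted and KO tumor, with ratios of 0.94 (0.41 to 1.52) and 0.63 (0.17 to 1.13). With each cell weighted equally the smaller ratio was -0.08. Il1rn stood at 155, 98.0, 226 and 104 CPM. Il1b, the cytokine that Il1rn opposes, was higher in sorted in WT and not in KO, at 275, 72.7, 352 and 363 CPM. Vegfa, the endothelial growth factor, stood at 70.7, 44.1, 65.1 and 13.8 CPM, and Hbegf, an EGF receptor ligand, at 13.7, 8.17, 68.3 and 37.7 CPM, with an interval in WT that included 0. Among M1 cells alone the smaller ratio of Vegfa was -0.18, and among M2 cells alone that of Hbegf was -0.25.

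Of the genes of hypoxia and glycolysis, Ndrg1, Ero1l and Adm were higher in tumor over all cells and higher in sorted in marker-carrying cells. Over all cells 6 of 32 measured genes were higher in tumor (P4ha2, Ndrg1, Ero1l, Slc2a3, Higd1a and Adm) and 0 in sorted, with medians of -0.43 in WT and -0.07 in KO. Of all genes 12.4% were higher in tumor there and 10.9% in sorted. In marker-carrying cells 6 were higher in sorted (Slc2a1, Adm, Ero1l, Egln3, Vegfa and Ndrg1) and 1 in tumor (P4ha2), with medians of 0.10 and 0.52. The shares of all genes were 3.81% and 3.6%. Among M2 cells alone the WT median was -0.00, and the ratios of Ndrg1 were -0.02 in WT and -0.005 in KO. Adm rested on 18 UMIs in WT tumor and 2 in KO tumor. Slc2a1, the glucose transporter GLUT1, stood at 156, 76.8, 64.8 and 33.0 CPM in marker-carrying cells and at 496 and 108 CPM in the marker-poor cells of WT and KO tumor. P4ha2, a collagen prolyl hydroxylase, stood at 19.5, 35.9, 5.84 and 8.45 CPM in marker-carrying cells and at 204 and 119 CPM in marker-poor cells, and its counting interval in KO included 0. Without possible doublets its ratios were -0.32 in WT and 0.25 in KO.

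**Figure D4:**
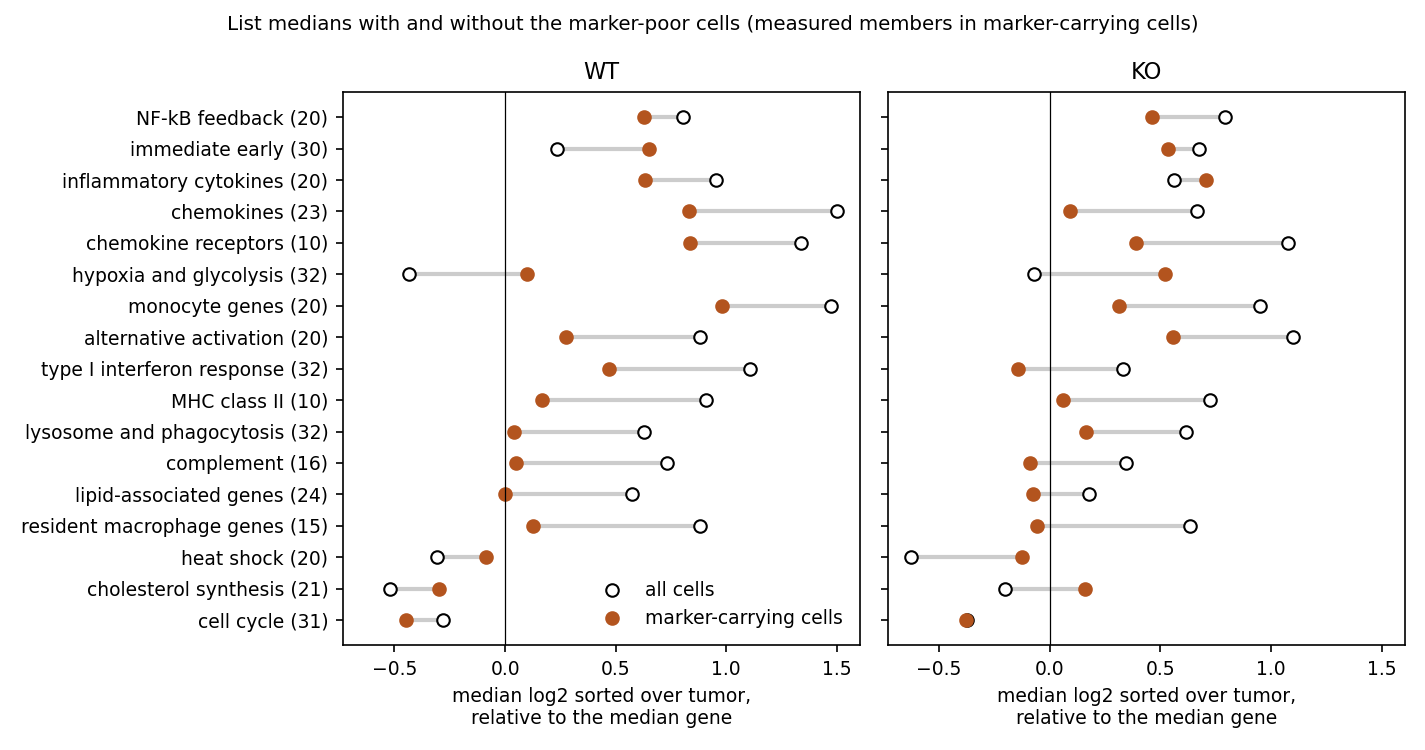
Median log2 ratio of sorted over tumor for 17 lists in WT (left) and KO (right), over all cells named macrophages (open circles) and marker-carrying cells (filled circles), with the number of members measured in the latter in brackets. NF-kB feedback, immediate early genes and inflammatory cytokines keep positive medians in both genotypes, while MHC class II, lysosome, complement and lipid-associated genes move close to 0.

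Some chemokines and their receptors were higher in sorted in both genotypes. In marker-carrying cells the median of 23 chemokines was 0.83 in WT and 0.09 in KO, and the difference between the genotypes was not tested. Xcl1, Ppbp, Cxcl1, Cxcl2 and Ccl24 were higher in sorted in both genotypes, 0 were higher in tumor and 4 were opposite. Cxcl2 (chr5:90903871-90905938, plus strand, GRCm38) had the highest level of these 5 in WT sorted, at 2006 CPM, against 358 in WT tumor, 733 in KO sorted and 341 in KO tumor. Its ratios were 2.43 (2.29 to 2.57) and 0.97 (0.83 to 1.11), and the tumor libraries were alike. The smaller ratio was 0.19 with cells thinned to 2000 UMIs and 0.33 among M2 cells alone. Ccl24 stood at 61.7, 35.9, 1963 and 1140 CPM, so the genotypes were further apart than the preparations. Its ratios were 0.72 and 0.65, but with each cell weighted equally the smaller was -0.32. Xcl1 and Ppbp are made by T or NK cells and by platelets, and had at most 6 UMIs in a tumor library. Of 10 measured chemokine receptors, Cxcr6, Cxcr4 and Ccrl2 were higher in sorted and Ccr3 in tumor, and 8 lay above the median gene in both genotypes, with medians of 0.84 in WT and 0.39 in KO. Among M1 cells alone the medians were 0.33 and 0.64. Cxcr4, the receptor of CXCL12, stood at 62.3, 31.0, 183 and 101 CPM, ratios of 0.95 and 0.71.

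The genes of the CD200 axis and the monocyte chemokines were read in the same cells. Cd200r1, the gene named in the genotype (chr16:44765736-44794978, plus strand), had 0 UMIs in both KO libraries, where 3 counts allow 0.350 CPM in KO sorted and 2.31 in KO tumor. It stood at 70.6 CPM in WT sorted and 53.1 in WT tumor, a ratio of 0.35 with an interval that reaches 0. Over all cells that ratio was 1.10, since marker-poor cells had 0 Cd200r1 UMIs. Cd200 was low, at 4.58, 0.817, 9.11 and 0 CPM. Ccl8 stood at 1281, 968, 7147 and 6694 CPM, ratios of 0.35 and -0.04. Ccl2 stood at 1298, 710, 869 and 1014 CPM, so the preparations were in opposite order in the genotypes, with ratios of 0.81 and -0.36.

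Most programs that describe what kind of macrophage a cell is had smaller pooled medians once marker-poor cells were left out. The cells left out were selected for low identity RNA and lay mostly in the tumor libraries. Smaller medians of macrophage genes thus follow at least in part from that selection and are described only. Itgam, for example, is in both the identity and the complement lists. For MHC class II genes the medians were 0.91 and 0.72 over all cells, with 8 of 10 genes higher in sorted, and 0.17 and 0.06 in marker-carrying cells, with H2-DMb2 and H2-Ob higher in sorted. H2-Ab1, a chain of the class II molecule, stood at 914, 842, 1888 and 1732 CPM there. Among marker-carrying M1 cells the class II medians were 0.26 in WT and 0.33 in KO, and among M2 cells -0.56 and -0.26. For lysosome and phagocytosis genes, medians of 0.63 and 0.61 became 0.04 and 0.16, and 10 of 32 genes higher in sorted became 0. The lipid-associated genes went from 0.57 and 0.18 to 0.00 and -0.08, complement from 0.73 and 0.34 to 0.05 and -0.09, and resident macrophage genes from 0.88 and 0.64 to 0.12 and -0.06. Among marker-carrying M2 cells the KO median of the lipid-associated genes was -0.69. Alternative activation genes kept medians of 0.27 and 0.56, with 4 of 20 higher in sorted. The identity genes used to select the cells had medians of 0.07 and -0.35. The medians of heat shock genes were -0.31 and -0.63 over all cells, with 9 of 21 higher in tumor and 3 (Hspa1b, Hspa1a and Bag3) higher in sorted, and -0.09 and -0.12 in marker-carrying cells, with 0 higher in tumor and Hspb1 higher in sorted.

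Of the monocyte genes, 4 of 20 were higher in sorted in both genotypes in marker-carrying cells. The medians were 0.98 in WT and 0.31 in KO, and the 4 included Itgal, Thbs1 and Ear2. Thbs1, the matrix protein thrombospondin, stood at 553 CPM in WT sorted, 192 in WT tumor, 341 in KO sorted and 156 in KO tumor, ratios of 1.47 (1.28 to 1.66) and 0.99 (0.78 to 1.20). Of its 235 UMIs in WT tumor 226 were in M2 cells, where the ratios were 0.38 in WT and 0.76 in KO. Itgal, an integrin chain that lymphocytes also carry, stood at 24.8, 6.53, 95.4 and 41.5 CPM. Type I interferon response genes had medians of 0.47 and -0.14 in marker-carrying cells, where Oas1a, Stat2 and Ifit2 of 32 genes were higher in sorted.

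Sorted macrophages carried more RNA of T and NK cells than tumor macrophages did. Of 23 measured T and NK genes, 19 were higher in sorted in both genotypes in marker-carrying cells and 0 in tumor, with medians of 2.19 and 2.27. Of all genes 3.81% and 3.6% were. In WT tumor 14 of the 23 had 0 UMIs, so their ratios, and with them the WT median, are lower bounds. These 14 reached 20 UMIs in WT through the sorted library alone, so the count is a description only. The 24 genes summed to 354 CPM in WT sorted (347 to 360), 71.9 in WT tumor (57.6 to 88.5), 495 in KO sorted (481 to 510) and 116 in KO tumor (98.3 to 136). In B cells of the same libraries the sum was 288, 224, 213 and 216 CPM, so it did not differ by preparation to that extent. The difference sat in few cells: 12.2% of WT sorted and 13.6% of KO sorted macrophages had UMIs of at least 3 of these genes, against 1 of 130 and 5 of 324 in the tumor libraries. Those cells held 79.0% and 84.3% of the sum in the sorted libraries. Without them the sums were 90.7, 68.6, 105 and 66.7 CPM. Among M2 cells alone they were 665, 90.9, 621 and 110 CPM, and with cells thinned to 2000 UMIs 371, 52.3, 415 and 111 CPM. The WT list medians were 0.18 and -0.63 there, but 19 of 21 and 11 of 13 measured genes had 0 UMIs in WT tumor, so these medians show no direction. Without possible doublets, which these genes help to define, the sums were 103, 90.8, 107 and 68.7 CPM. Trac, the constant chain of the T cell receptor, stood at 13.7 CPM in WT sorted, 0 in WT tumor, 28.5 in KO sorted and 6.15 in KO tumor.

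Summed RNA of B cells and neutrophils was also higher in sorted in both genotypes. B cell genes summed to 277 CPM in WT sorted, 131 in WT tumor, 312 in KO sorted and 211 in KO tumor in marker-carrying cells, and 7 of 13 were higher in sorted. Without the cells that had UMIs of at least 3 of these genes the sums were 101, 116, 166 and 197 CPM. Tumor was then above sorted in both genotypes. Without possible doublets the medians were -0.42 in WT and -0.82 in KO, over 5 measured genes. In T and NK cells the B cell genes summed to 715, 673, 634 and 502 CPM. Neutrophil genes summed to 852, 135, 244 and 168 CPM in marker-carrying macrophages. Of 10 measured neutrophil genes 4 were higher in sorted and 3 opposite, with medians of 2.01 in WT and 0.36 in KO. T and NK cells numbered 917, 39, 1300 and 410 in the 4 libraries, B cells 972, 58, 943 and 327, and neutrophils 432, 17, 87 and 21. The part of this RNA, and of cells caught together, in the other differences was not tested. When possible doublets were removed from the marker-carrying cells, 56 genes were higher in sorted and 8 in tumor.

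**Figure D5:**
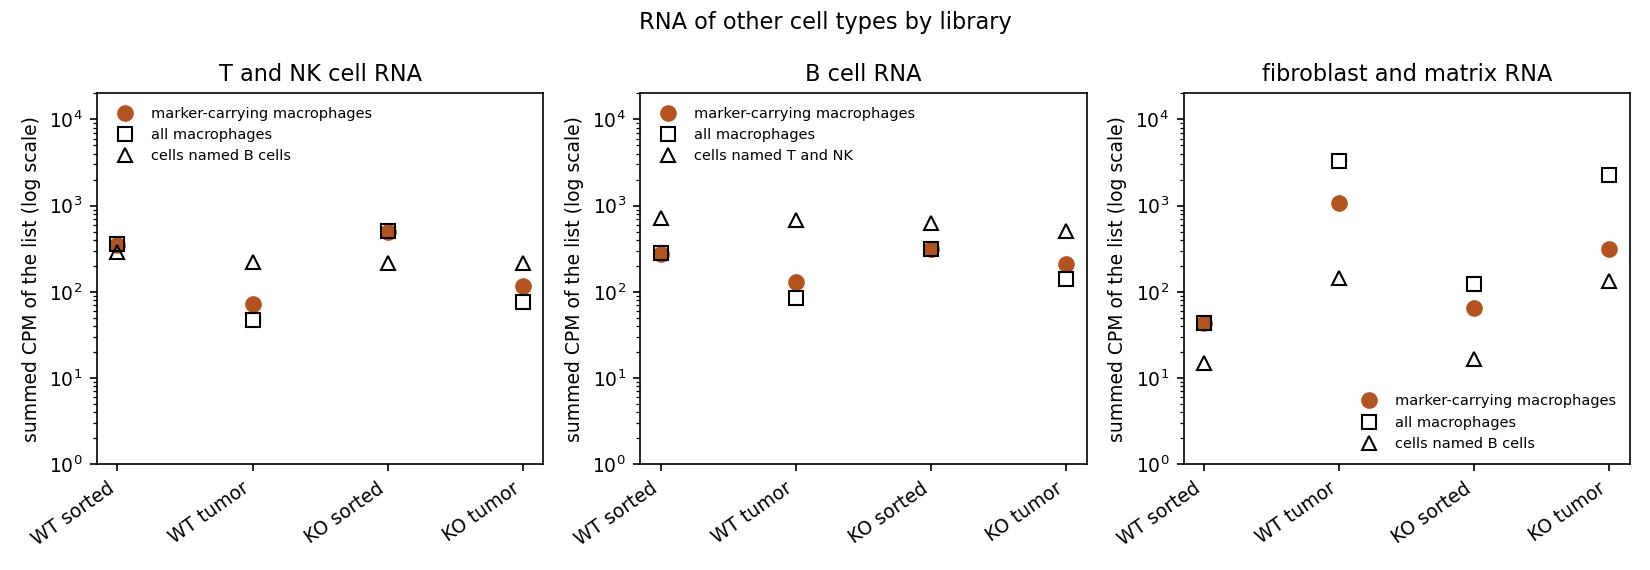
Summed CPM (log scale) of the T and NK cell, B cell and fibroblast and matrix lists in each library, for marker-carrying macrophages (filled circles), all macrophages (squares) and a lymphocyte class of the same library (triangles: B cells in the outer panels, T and NK cells in the middle one). T and NK RNA in macrophages is higher in the sorted libraries (354 and 495 CPM) than in the tumor libraries (71.9 and 116 CPM), while B cells lie between 213 and 288 CPM throughout.

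In marker-carrying cells Ccl5, the T cell and monocyte attractant, was the only gene at 50 CPM or more in each genotype that went 2-fold opposite ways. Mitochondrial and ribosomal genes were left out of this count. It was named after its values had been seen. It stood at 138 CPM in WT sorted, 0.817 in WT tumor (1 UMI), 66.1 in KO sorted and 125 in KO tumor. The ratios were 7.35 (4.87 to 12.65) and -1.06 (-1.32 to -0.80), and the difference between the genotypes was not tested. At 2000 UMIs per cell, 6.22%, 0%, 5.75% and 5.56% of the cells had a Ccl5 UMI, and WT tumor, with 86 such cells, stood apart from the other libraries.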

How the data were processed

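Libraries were droplet 3' libraries, per the labels. Seurat 4.0.5, Cell Ranger 6.0.1 and build mm10 are listed in the submitters' processing notes, with no further settings. The deposited matrix holds natural log values, ln(1 + 10000 x UMIs / total UMIs of the cell). Inverting it with the total counts deposited by the authors gave whole UMIs within 0.01 for all 60957742 values. Filters on cells and the treatment of doublets by the authors are not given in the sources used here, and none were removed here.

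UMIs were summed per library, with no test and no p-value, because each condition is 1 library. Intervals at 95% are exact Poisson (CPM), Clopper-Pearson (shares) and conditional binomial (ratios). A count of 0 was set to 3 UMIs and the ratio given as a bound. Such bounds entered the counts of genes that rest on the ratio. Named genes were the 12 highest and 12 lowest by the smaller absolute ratio among 2-fold genes with 50 UMIs in each genotype and 50 CPM in a preparation of each genotype. The same ranking was used for macrophage-led genes, the 6 largest opposite genes, the leading members of lists, and Cd200r1, Cd200, Ccl24, Ccl8 and Ccl2. Mitochondrial and ribosomal genes were left out of the rankings. The members, the 32 gene lists and these rules were chosen with earlier results of these data known, and the marker-carrying cells after seeing these values. Some genes that these rules name are not reported here. List genes that the matrix does not name, such as Clec7a and Mx1, were not analysed here. On simulated counts over 9397 genes, 100 of 100 genes changed 4-fold and 99 of 100 changed 3-fold were recovered, with 0 of 9197 unchanged genes called. These were Poisson draws from a profile shared by the libraries, with no spread between libraries, animals or cells. They check the calculation and give no rate of false calls for the real libraries. Python 3.11.15, numpy 2.4.6, scipy 1.17.1 and pandas 2.3.3 were used.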

Additional observations from a re-analysis of the deposited data

Results flagged for a closer look

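Among all cells named macrophages, 6 genes stood furthest apart in opposite directions in the genotypes. The log2 ratios of sorted over tumor were -3.43 in WT and 3.59 in KO for Rgs16, at least 2.83 and -3.73 for Ly6d, -3.58 and 1.64 for F2r, -1.50 and 1.80 for Bmp2, 2.92 and -1.50 for Met, and -1.85 and 1.46 for Spry2. Rgs16 damps G protein signalling, Ly6d is a surface protein of lymphoid progenitors, F2r is a thrombin receptor, Bmp2 a bone morphogenetic protein, Met the HGF receptor and Spry2 an inhibitor of receptor kinase signalling.

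In marker-carrying macrophages the 6 were F2r (-3.05 and 2.27), Cd5l (-1.45 and 2.49), 0610040J01Rik (1.30 and -1.41), Vwf (1.37 and -1.27), Prkce (-1.57 and 1.25) and Slc9a4 (1.30 and -1.21). F2r is the gene found in both sets. Cd5l, a scavenger protein of resident macrophages, stood at 4.04 CPM in WT sorted, 10.6 in WT tumor, 14.2 in KO sorted and 2.31 in KO tumor, from 13 and 3 UMIs in the tumor libraries. With 1 library per condition, the difference between the genotypes was not tested for any of these genes.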

How the results depend on the processing

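No paired analysis was possible because the cells carry the name of the group and not of the sample, so the counts come from 4 pooled libraries with no replicates to pair or leave out. Numbers of genes are given as higher in sorted, higher in tumor and opposite, and were 323, 466 and 14 over all cells named macrophages. They were 50, 53 and 6 with cells thinned to 2000 UMIs, 82, 151 and 9 without possible doublets, 116, 173 and 1 at 200 UMIs per gene, and 73, 257 and 2 with the whole interval past 2-fold. With equal weight per cell 217 were higher in tumor and 71 opposite, among M1 cells 100 were higher in sorted and 126 in tumor, and among M2 cells 22 were opposite. In cells of 3000 to 20000 UMIs 205 were higher in tumor and 9 opposite, and at 10 UMIs per gene 1053 and 107. Without centring they were 444, 391 and 17. The marker-carrying cells, a choice added after seeing the data like all that follow, gave 106, 47 and 22. A value of 0.2% in place of 0.5% gave 111 higher in sorted and 60 in tumor, and 1% gave 77, 30 and 25. Within marker-carrying cells, leaving out shared barcodes gave 116 and 42, M1 cells 58 and 33, M2 cells 64, 22 and 66, thinning 37, 1 and 4, and removal of possible doublets 56 and 8. A gene with 0 UMIs in a library entered at 3 UMIs, which can set its direction where few UMIs were summed. Gas1 among M2 cells, for example, stood at -4.08 in WT with 0 UMIs in WT tumor. The numbers higher in tumor or opposite can include such bounds. Equal weights there gave 98 higher in tumor and 109 opposite. Fewer cells or UMIs enter several of these choices, and the cause of each shift was not tested.

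Some values changed sign in at least 1 genotype. Unless a genotype is named, the ratio given is the smaller of both genotypes for genes and lists higher in sorted. It is the larger for Areg, Cxcl1, Ero1l, Ndrg1, Ugdh, Fdps, Birc5 and P4ha2, which had been higher in tumor. Over all cells, equal weights gave 0.57 for Areg, -0.11 for Ccl8 and -0.03 for the resident macrophage list, and cells of 3000 to 20000 UMIs gave 0.71, -0.30 and -0.20. M1 cells gave 2.03 for Cxcl1, 0.41 for Ero1l, 0.37 for Ndrg1 and 0.04 for Ugdh. M2 cells gave -0.33 for Mmp12 and 1.38 for Met in KO. Marker-carrying cells gave 2.15 for Areg, -0.04 for Ccl8, 4.23 for Cxcl1, 1.04 for Ero1l, 0.61 for Ndrg1, 0.35 for Ugdh, 0.89 for Met in KO and -0.06 for the resident list. Within marker-carrying cells, M1 cells gave -0.18 for Vegfa, M2 cells -0.25 for Hbegf and 2.51 for Fdps, removal of possible doublets 0.90 for Fdps, and equal weights -0.35 for Nfkbid, -0.08 for Tnf and -0.32 for Ccl24. There M2 cells also gave -1.66 for Mmp12 in KO, -0.02 for Ndrg1 in WT and 0.77 for P4ha2. Among M2 cells Fdps and P4ha2 had 1 UMI each in WT tumor, and without possible doublets Fdps had 12. Thinned marker-carrying cells gave 0.27 for Birc5, 0.16 for P4ha2 and 0.74 for Fdps. These came from 5 UMIs in WT tumor, 1 in KO tumor and 3 in WT tumor. Without possible doublets P4ha2 was at 0.25, and the B cell list at -0.42 in WT and -0.82 in KO. Thinning gave a WT median of -0.63 for the T and NK cell list, a bound since 11 of its 13 measured genes had 0 UMIs in WT tumor, and M2 cells one of -0.00 for the hypoxia list. A tally of genes and lists counted 623 values over all cells and 350 in marker-carrying cells as staying on their side of the fold used. This includes values that moved by under 0.5 where they had not reached it. It counted 91 and 64 as moved, and 20 and 7 as reversed. WT tumor held the fewest marker-carrying cells, 130, with 1224637 UMIs against 1301400 in KO tumor. The lack of replicates limits all of these values.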

Other observations

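Some cell cycle genes were higher in the tumor preparation in marker-carrying macrophages. Over all cells 2 of 31 were higher in tumor (Ccne1 and Cenpe), where 12.4% of all genes were, and 1 (Plk1) went opposite ways, with medians of -0.28 in WT and -0.37 in KO. In marker-carrying macrophages the medians of 31 genes were -0.45 in WT and -0.38 in KO, 22 lay below the median gene in both genotypes, as did 29.8% of all genes, and 0 lay above it in both, as did 29.7%. At 1.5-fold 4 were higher in tumor (Cenpe, Birc5, Ube2c and Cenpf) where 3.6% of all genes were, 0 were higher in sorted and Plk1 was opposite. Birc5, the mitotic protein survivin, stood at 47.4 CPM in WT sorted, 79.2 in WT tumor, 34.8 in KO sorted and 71.5 in KO tumor, ratios of -0.80 (-1.09 to -0.49) and -1.18 (-1.52 to -0.83). Cenpe, a kinesin of the kinetochore, stood at 9.97, 26.9, 13.3 and 25.4 CPM. Both tumor libraries were above both sorted ones for these genes. With cells thinned to 2000 UMIs the WT ratio of Birc5 was 0.27, from 5 UMIs in WT tumor. Over 8 other choices of cells and weights the list median ran from -0.65 to -0.20 in WT and from -0.74 to -0.16 in KO.

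Of the cholesterol synthesis genes, Sqle and Fdps were higher in tumor in marker-carrying cells. Fdps stood at 28.3, 43.3, 16.5 and 28.4 CPM, and Sqle at 5.24, 21.2, 9.11 and 13.1 CPM with an interval in KO that included 0. The direction of Fdps turned in WT among M2 cells alone, with possible doublets removed and with cells thinned to 2000 UMIs. These values came from 1, 12 and 3 UMIs in WT tumor. Unfolded protein response genes had medians of 0.32 in WT and 0.29 in KO, with Hyou1 as the member of 20 higher in sorted and 0 in tumor. Mitochondrial genes made up 4.16% of the UMIs of marker-carrying macrophages in WT sorted, 7.56% in WT tumor, 5.58% in KO sorted and 6.50% in KO tumor, and ribosomal protein genes 14.7%, 16.5%, 12.6% and 16.03%.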
